A study of Homo sapiens with 4 samples.

Results

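Replicate 1 of this ChIP-seq study held 5572 peaks at the ends of protein-coding genes that had no peak of replicate 2 within 5 kb. They were 30.6% of the 18188 peaks that replicate 1 placed at gene ends on chromosomes 1 to 22 (95% Wilson interval 29.97 to 31.31%). A gene-end peak is a peak that overlaps the window of 1 kb on each side of either end of a RefSeq protein-coding gene. Those selected on the absence of a replicate 2 peak are called absent peaks here. They were set against the 6547 gene-end peaks that overlap a replicate 2 peak by at least 1 bp (36.0%, 35.3 to 36.7%), called both-list peaks, and the remaining 6069 (33.4%) had a replicate 2 peak within 5 kb but no overlap.

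The study used MDA-MB-231 subclone cells, an established human line from triple-negative breast cancer, with the genotype given as wild type and no treatment. DNA was recovered with an antibody to the HA tag, and PD-L1 is the precipitated protein by the labels. How the tag was introduced was not given in the sources used here, and the labels speak of a subclone without further detail. There were 2 ChIP samples, numbered 1 and 2, each with an input sample, and 1 peak list per replicate. The list of replicate 1 held 166628 peaks and that of replicate 2 held 93618, and the depth of the libraries is unknown. Median fold enrichment over the caller's background was 3.14 in replicate 1 and 2.27 in replicate 2, and no peak in either list had a −log10 q under 1.30. No mock precipitation was analysed here, so recovery of chromatin without the target cannot be told apart from binding. Peaks do not show which genes the cells express, so the cell type was not checked against its markers.

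PD-L1, which CD274 encodes, is the surface ligand of PD-1, an inhibitory receptor of T cells, and it has also been reported in the nucleus of cancer cells. A gene start is where RNA polymerase II assembles with general transcription factors, often on a CpG island, a stretch rich in unmethylated CG dinucleotides. A broad peak marks a stretch with more reads than a local or input background.

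Since the members were selected on their position relative to the replicate 2 list, every comparison below is a description with no test. A wide peak, or a peak in a stretch full of peaks, meets a replicate 2 peak more readily under the selection rule, so width and density are not independent of it. Each replicate gave 1 list, so there is no replicate check of any share, and the intervals cover counting error only. Neighbouring peaks and genes that share a peak are not independent.

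The promoters printed next are those of the 6 absent peaks with the highest fold enrichment that overlap the promoter itself, as 300 bases of the RefSeq promoter table, followed by those of 2 both-list peaks. They are shown to set the DNA under the strongest absent peaks beside that under strong both-list peaks. Each runs 5′ to 3′ on the strand of the gene, from 250 bases before the start to 50 after it, in the RefSeq build GRCh38.p14, and capitals mark CG dinucleotides. ILF2, a subunit of a complex that binds double-stranded RNA, lies on the minus strand with its promoter at chr1:153670944-153671243. TRIM7, a ubiquitin ligase of the tripartite motif family, lies on the minus strand at chr5:181205147-181205446. NDUFS7, a core subunit of respiratory complex I, lies on the plus strand at chr19:1383657-1383956. RAB11A, a small GTPase of recycling endosomes, lies on the plus strand at chr15:65869241-65869540. KIF3A, a motor subunit of kinesin-2, lies on the minus strand at chr5:132737497-132737796. EIF3J, a subunit of translation initiation factor 3, lies on the plus strand at chr15:44536897-44537196. Of the both-list pair, POLR3E, a subunit of RNA polymerase III, lies on the plus strand at chr16:22297159-22297458. CELF1, an RNA-binding regulator of splicing, lies on the minus strand at chr11:47565490-47565789.
ILF2: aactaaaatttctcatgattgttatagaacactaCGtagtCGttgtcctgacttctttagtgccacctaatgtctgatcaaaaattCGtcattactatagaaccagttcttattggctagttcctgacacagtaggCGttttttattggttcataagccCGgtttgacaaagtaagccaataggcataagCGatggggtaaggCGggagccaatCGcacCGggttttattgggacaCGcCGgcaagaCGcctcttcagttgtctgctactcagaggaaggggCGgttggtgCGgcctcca
TRIM7: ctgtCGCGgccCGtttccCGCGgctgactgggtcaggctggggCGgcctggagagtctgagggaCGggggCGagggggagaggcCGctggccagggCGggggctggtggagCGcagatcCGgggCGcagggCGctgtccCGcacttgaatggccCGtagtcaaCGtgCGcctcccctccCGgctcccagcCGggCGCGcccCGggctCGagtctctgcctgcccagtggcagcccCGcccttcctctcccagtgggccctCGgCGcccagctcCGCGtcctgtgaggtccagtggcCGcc
NDUFS7: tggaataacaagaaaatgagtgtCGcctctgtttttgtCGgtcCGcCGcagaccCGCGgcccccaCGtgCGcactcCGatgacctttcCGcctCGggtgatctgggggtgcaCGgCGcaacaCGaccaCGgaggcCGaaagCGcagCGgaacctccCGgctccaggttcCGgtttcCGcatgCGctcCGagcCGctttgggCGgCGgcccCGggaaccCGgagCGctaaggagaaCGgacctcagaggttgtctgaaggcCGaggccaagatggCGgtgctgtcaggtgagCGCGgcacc
RAB11A: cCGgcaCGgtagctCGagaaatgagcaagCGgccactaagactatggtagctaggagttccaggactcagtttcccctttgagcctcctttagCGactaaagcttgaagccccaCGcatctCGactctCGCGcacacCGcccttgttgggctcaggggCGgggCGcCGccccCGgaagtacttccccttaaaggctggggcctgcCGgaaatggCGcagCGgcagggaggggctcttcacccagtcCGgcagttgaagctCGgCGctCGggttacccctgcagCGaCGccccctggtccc
KIF3A: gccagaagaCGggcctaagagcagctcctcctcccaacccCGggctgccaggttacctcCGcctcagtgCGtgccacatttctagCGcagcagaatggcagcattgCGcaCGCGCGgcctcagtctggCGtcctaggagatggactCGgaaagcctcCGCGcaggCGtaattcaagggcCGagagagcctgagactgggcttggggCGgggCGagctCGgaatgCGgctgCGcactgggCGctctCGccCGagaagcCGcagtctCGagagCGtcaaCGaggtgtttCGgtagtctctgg
EIF3J: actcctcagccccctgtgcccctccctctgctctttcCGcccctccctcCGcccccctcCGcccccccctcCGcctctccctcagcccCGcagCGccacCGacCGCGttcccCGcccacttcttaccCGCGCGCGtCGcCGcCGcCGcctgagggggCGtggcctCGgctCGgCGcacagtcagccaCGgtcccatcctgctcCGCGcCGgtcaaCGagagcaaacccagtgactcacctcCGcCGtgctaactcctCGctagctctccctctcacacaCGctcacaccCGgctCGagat
POLR3E: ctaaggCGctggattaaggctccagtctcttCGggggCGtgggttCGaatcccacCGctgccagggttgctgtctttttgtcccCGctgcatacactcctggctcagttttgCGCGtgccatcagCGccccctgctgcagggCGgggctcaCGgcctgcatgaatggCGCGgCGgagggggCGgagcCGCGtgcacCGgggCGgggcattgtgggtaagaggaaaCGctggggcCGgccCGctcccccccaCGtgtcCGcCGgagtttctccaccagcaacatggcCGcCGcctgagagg
CELF1: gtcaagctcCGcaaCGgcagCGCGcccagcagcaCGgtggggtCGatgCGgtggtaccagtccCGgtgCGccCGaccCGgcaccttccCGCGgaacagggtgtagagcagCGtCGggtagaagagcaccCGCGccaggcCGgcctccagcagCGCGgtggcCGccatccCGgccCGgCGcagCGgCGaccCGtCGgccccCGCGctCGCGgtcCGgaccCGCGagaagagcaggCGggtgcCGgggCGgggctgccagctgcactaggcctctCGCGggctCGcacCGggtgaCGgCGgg

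The 6 printed absent promoters held 14 CG dinucleotides in ILF2, 30 in TRIM7, 34 in NDUFS7, 23 in RAB11A, 28 in KIF3A and 33 in EIF3J. The both-list promoters held 27 in POLR3E and 44 in CELF1. ILF2 was the least GC-rich of the 8, at 46.3% GC, and it was the only one with CCAAT boxes, of which it had 5 on both strands together. A GC box (GGGCGG, either strand) occurred in all 8, from 1 copy in ILF2, NDUFS7, KIF3A and CELF1 to 4 in EIF3J. NDUFS7 also held an E-box (CACGTG), the core of the NRF1 site (GCATGCGC) and the core of the YY1 site (AAGATGGC), and RAB11A held the ETS core (CCGGAAG). The both-list promoter of POLR3E held an E-box too.

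Across all 13149 promoters of the table that could be placed on an annotated autosomal start, those with absent peaks had about as many CG dinucleotides as those with both-list peaks. The 3471 promoters whose start window met absent peaks alone had a median of 26 CG dinucleotides in 300 bases (quartiles 18 to 33) and 64.7% GC. The 2972 promoters whose start window met both-list peaks alone had a median of 24 (15 to 33) and 64.7% GC. The 4106 promoters with no replicate 1 peak in the start window had a median of 9 (3 to 25) and 54.3% GC. Absent peaks thus lay at CG-rich starts: 11.1% of their promoters held fewer than 10 CG dinucleotides, against 16.8% of the both-list promoters, 51.6% of those with no peak and 26.5% of all.

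The 8 motifs searched also occurred at like rates in the absent and the both-list promoters. Both strands were searched, and motifs were counted whether or not they overlap another one. The GC box, to which factors of the Sp family bind, was held by 67.0% of the absent and 67.4% of the both-list promoters, against 39.0% with no peak and 58.9% of all. The TATA box (TATAAA), bound by the TATA-binding protein, was held by 6.22% and 6.26%, against 18.3% with no peak and 10.1% of all. CCAAT, bound by NF-Y, was held by 36.7% and 36.8%, against 38.0% and 36.8%. The widest gaps between absent and both-list promoters were those of the ETS core, at 19.99% (18.7 to 21.4%) against 17.8% (16.5 to 19.3%), and of the NRF1 core, at 6.11% (5.36 to 6.95%) against 4.74% (4.04 to 5.57%). All promoters held them at 14.8% and 4.36%. The E-box was held by 9.82% of the absent and 10.5% of the both-list promoters (8.81% of all), the cyclic AMP response element (TGACGTCA) by 3.08% and 3.70% (2.77% of all), and the YY1 core by 5.56% and 5.15% (4.11% of all). A match is a description of the letters and not a bound site.

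Absence was about as frequent at gene ends as elsewhere. Away from gene ends, 49023 of 148125 replicate 1 peaks had no replicate 2 peak within 5 kb, which is 33.1% (32.9 to 33.3%). With a distance of 10 kb in place of 5 kb, the order turned, to 19.97% at gene ends and 19.5% elsewhere. Gene-end peaks overlapped a replicate 2 peak more often, in 36.0% against 27.8% elsewhere, and had one nearby without overlap less often, in 33.4% against 39.1%. In the reverse comparison the share was smaller: of 7858 gene-end peaks of replicate 2, 539 (6.86%) had no replicate 1 peak within 5 kb, and 5736 (73.0%) overlapped one. Replicate 1 held 166313 autosomal peaks and replicate 2 held 93106, so the shares of both directions are not directly comparable.

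Among gene-end peaks, those at gene starts were absent from replicate 2 far more often than those at the other end. The strand, and with it which end is the start, was known for 15100 of 19122 genes (79.0%), and for none on chromosome 8. Of the peaks that met a start alone, 3386 of 8614 were absent (39.3%, 38.3 to 40.3%). Without regard to numbers of neighbours, this lies above the 33.1% away from gene ends. Of those that met the other end alone, 918 of 4599 were absent (19.96%, 18.8 to 21.1%), which lies below that 33.1%. Peaks that met a start and another end gave 185 of 938 (19.7%), and those with no strand gave 1083 of 4037 (26.8%). On all 21 chromosomes with strands, the share was higher at starts than at other ends. On chromosome 20 it was 20.4% at starts and 6.88% at other ends, and on chromosome 19 it was 23.6% and 18.5%. Peaks at a start alone thus made up 60.8% of the absent peaks and 42.2% of the both-list peaks.

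Peaks at starts had fewer neighbours, with a median of 23 other replicate 1 peaks within 100 kb against 34 at other ends. The contrast between starts and other ends remained when peaks with like numbers of neighbours were compared. With 0 to 4 neighbours, 69.6% of start peaks and 54.0% of other-end peaks were absent. With 10 to 19 neighbours the shares were 49.2% and 33.7%, and with 20 to 29 they were 34.5% and 22.4%. With 40 to 69 neighbours they came to 15.1% (13.5 to 16.8%) and 12.2% (10.7 to 13.9%), whose intervals overlap, as they do with 5 to 9 neighbours (60.9% and 57.9%). Starts were thus above other ends in all 6 ranges, by 2.85 to 15.7 percentage points.

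**Figure D1:**
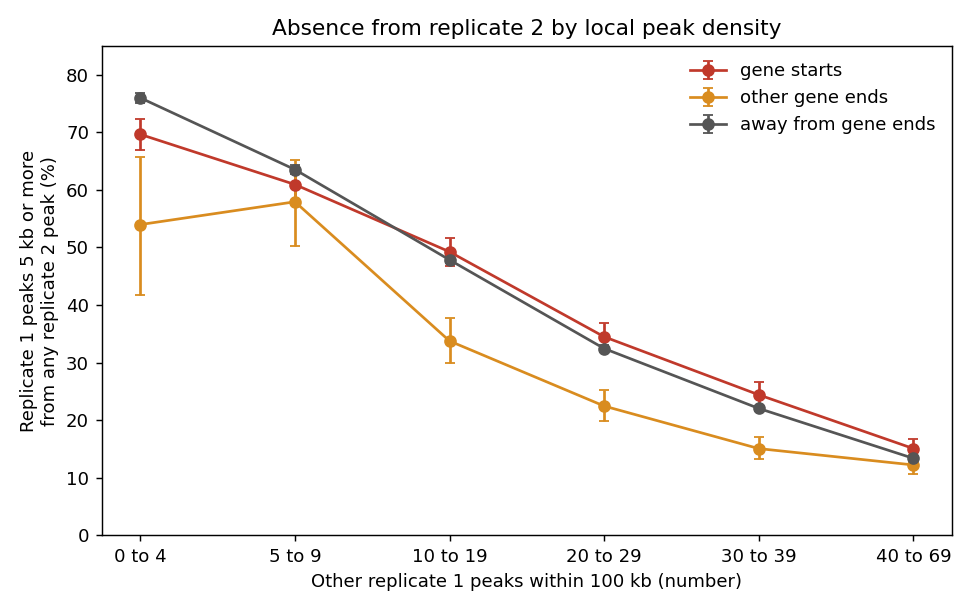
Share of replicate 1 peaks with no replicate 2 peak within 5 kb (y axis, percent) in 6 ranges of the number of other replicate 1 peaks within 100 kb (x axis), for peaks at gene starts, at other gene ends and away from gene ends, with 95% Wilson intervals that cover counting error only. The share at gene starts goes from 69.6% in the sparsest to 15.1% in the densest range, and that of other gene ends lies below it in each.

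Absent peaks stood in sparse neighbourhoods. The median number of other replicate 1 peaks within 100 kb was 16 for absent peaks (95% interval of the median 15 to 16, quartiles 6 and 30) and 34 for both-list peaks (34 to 35, quartiles 22 and 44). It was 33 for gene-end peaks near a replicate 2 peak without overlap (quartiles 23 and 43), close to the both-list peaks, and 29 over all gene-end peaks. With no other replicate 1 peak within 100 kb stood 109 absent peaks (1.96%) and 25 both-list peaks (0.382%). Protein-coding genes were also fewer around absent peaks, with medians of 11 and 17 within 500 kb. Replicate 2 peaks had medians of 8 and 19 within 100 kb, but the selection used that list, so this difference is no separate observation. Peaks away from gene ends gave almost the same medians of replicate 1 neighbours, 17 for absent and 35 for both-list peaks. When gene-end peaks were grouped by these neighbours, the share absent was 68.9% with 0 to 4, 58.7% with 5 to 9, 46.0% with 10 to 19, 28.4% with 20 to 29, 19.3% with 30 to 39 and 12.9% with 40 to 69. The share away from gene ends followed the same order, from 76.0% to 13.4%, and lay above that of gene ends in all 6 ranges.

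The same order appeared across chromosomes. Chromosome 20 had the lowest share of absent gene-end peaks, with 103 of 818 (12.6%) and a median of 39 neighbours per gene-end peak. Chromosomes 16, 19 and 17, all gene-dense, followed at 20.1%, 20.2% and 20.6%. The highest share was that of chromosome 18, with 113 of 218 (51.8%) and a median of 15 neighbours, and chromosome 4, which is gene-poor, had 49.0% with a median of 9. Across the 22 chromosomes, the share absent and the median number of neighbours had a Spearman rho of −0.956, and the shares at gene ends and elsewhere had one of 0.970. These are descriptions over points that share both libraries. The share at gene ends was below that elsewhere on 14 of the 22.

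**Figure D2:**
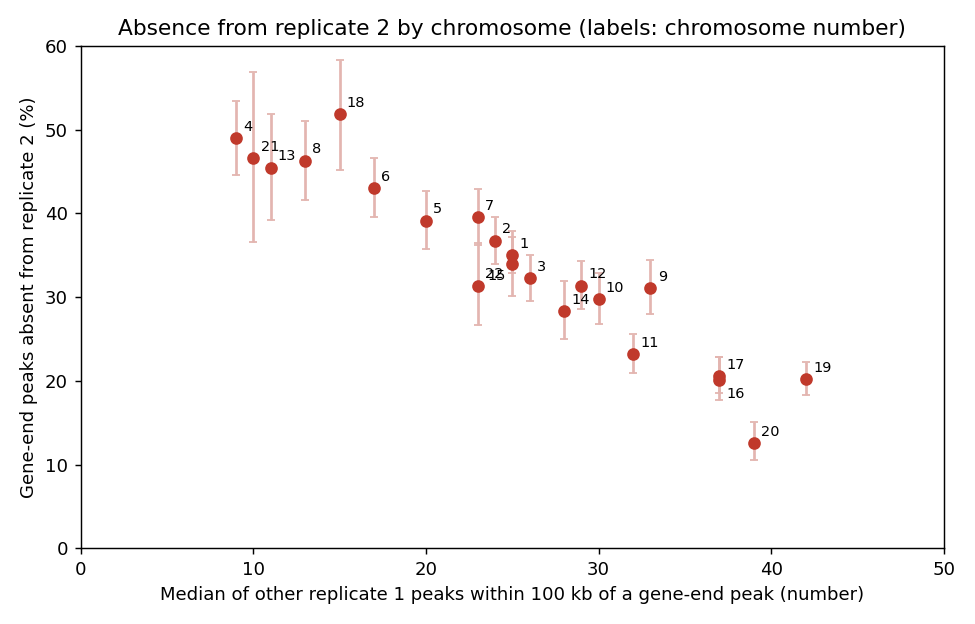
Share of gene-end peaks absent from replicate 2 (y axis, percent, with 95% Wilson intervals) against the median number of other replicate 1 peaks within 100 kb of a gene-end peak (x axis), 1 point per chromosome. Chromosome 20 lies lowest at 12.6%, and chromosomes 18 and 4 lie highest at 51.8% and 49.0%.

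Absent peaks were narrow. Their median width was 760.5 bp (742 to 777), with 5% and 95% points at 210 and 2375 bp, against 1519 bp (1479 to 1566) for both-list peaks, with points at 291 and 6242 bp. Gene-end peaks near a replicate 2 peak without overlap, at 842 bp, resembled the absent ones. A width of 3 kb or more was reached by 129 absent peaks (2.32%) and 1492 both-list peaks (22.8%), and 29.7% and 12.2% were under 500 bp wide. In all, absent peaks covered 5.34 Mb and both-list peaks 14.5 Mb. Away from gene ends the medians were 440 and 834 bp, so absent peaks at gene ends were still wider than absent peaks elsewhere. In 5 equal groups of gene-end peaks ordered by width, the share absent was 39.97%, 39.6%, 35.3%, 27.3% and 10.9% from the narrowest to the widest, so most of the difference lay in the widest group, from 2074 to 33269 bp.

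**Figure D3:**
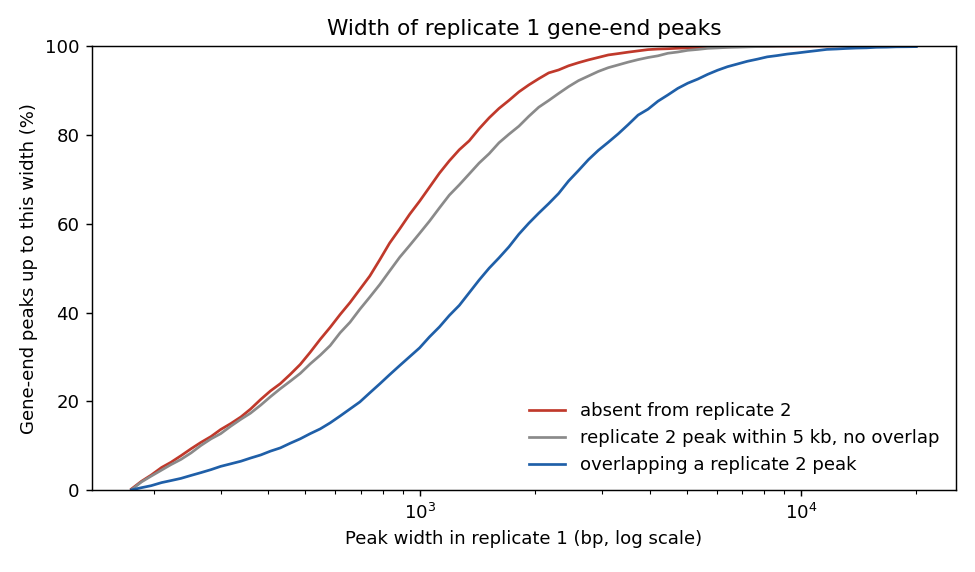
Cumulative share of gene-end peaks (y axis, percent) up to a given width (x axis, bp, log scale) for absent peaks, peaks near a replicate 2 peak and both-list peaks of replicate 1. The curve of the absent peaks lies left of the others, with a median of 760.5 bp against 1519 bp for both-list peaks.

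Both-list peaks were the wider ones in sparse and in dense stretches. With 0 to 4 neighbours the medians were 630.5 bp for absent and 781 bp for both-list peaks, and with 40 to 69 neighbours they were 1054 and 2027 bp. The order was the same in all 6 ranges and on 21 of 22 chromosomes. On chromosome 21 it was turned, with 581 bp for absent and 450 bp for both-list peaks, and there the median number of neighbours was 8 for each.

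In contrast to width, enrichment differed little between absent and both-list peaks. Median fold enrichment, as the authors' caller gave it, was 3.17 for absent peaks (5% and 95% points 2.76 and 3.76) and 3.22 for both-list peaks, and median −log10 q was 1.97 and 2.08. Of 5 equal groups by −log10 q, the lowest was absent in 38.3%, and the others in 31.0%, 29.6%, 26.7% and 27.6% toward the highest. The strongest peaks were not all shared: of the 20 gene-end peaks with the highest −log10 q, 7 were absent (35.0%, 18.1 to 56.7%) and 5 were both-list. Of the first 100, 42 were absent (42.0%, 32.8 to 51.8%) and 26 both-list, and of the first 500, 182 (36.4%, 32.3 to 40.7%) and 157. Over all gene-end peaks, 30.6% were absent and 36.0% both-list, so absence was not rarer among these strongest peaks. A −log10 q of 5 or more was reached by 5 absent and 2 both-list peaks.

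At gene starts, absent peaks were centred closer to the start than both-list peaks. Over 3661 pairs of an absent peak and a start, the centre lay at a median of 120 bp inside the gene (quartiles −127 and 396), and over 3372 both-list pairs at 173 bp (−244 and 732). The centre was within 500 bp of the start in 70.1% of absent and 49.9% of both-list pairs. Both-list start peaks were the wider ones, with medians of 1323.5 against 792.5 bp. For peaks near a replicate 2 peak without overlap, the centre was within 500 bp of the start in 49.6% of 2865 pairs (quartiles −370 and 619). Gene-end peaks of that kind had a median width of 842 bp. Whether width bears on the position of the centre was not tested. The start base itself was covered in 63.6% (62.0 to 65.2%) of absent and 69.9% (68.4 to 71.5%) of both-list pairs.

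**Figure D4:**
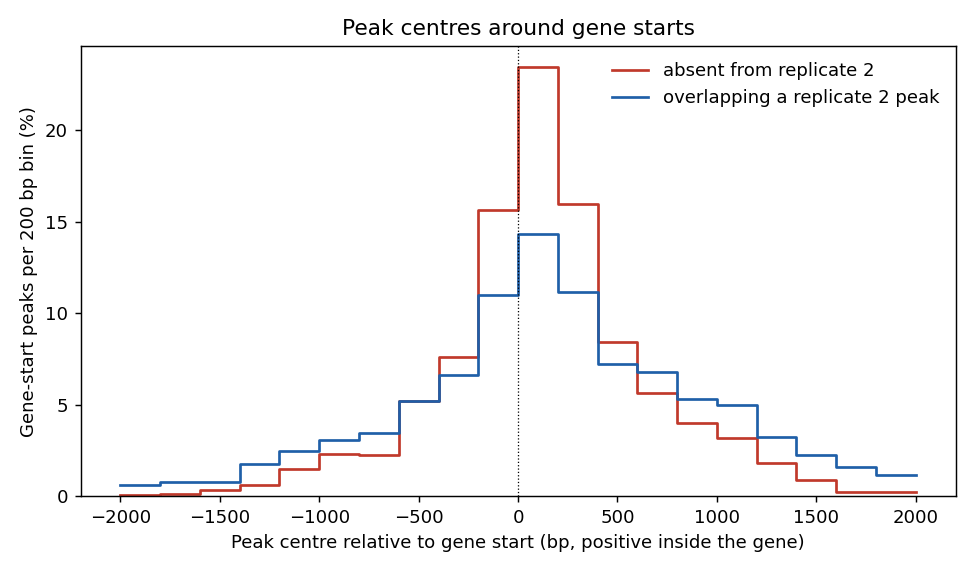
Share of peaks at gene starts (y axis, percent per 200 bp bin) by the position of the peak centre relative to the start (x axis, bp, positive inside the gene), for absent and both-list peaks of replicate 1. Absent peaks crowd around the start, with 70.1% of centres within 500 bp, against 49.9% for both-list peaks.

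The distance to the nearest replicate 2 peak had a median of 14338.5 bp (quartiles 8128 and 31554). It was 10 kb or more for 3632 absent peaks (65.2%), 20 kb or more for 2152 (38.6%) and 100 kb or more for 279 (5.01%). Just inside the limit of the selection lay peaks at NCLN, HEG1 and ULK1, at 5003, 5004 and 5005 bp. Just outside it lay peaks at GPR75 and GPR75-ASB3, EPHB3 and FGD3, at 4998, 4998 and 4996 bp, so distances ran on across the limit.

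The absent peak of highest fold lay at an end of PLXDC1, a transmembrane protein of tumour endothelium, at chr17:39151884-39155333. It was 3450 bp wide with a fold of 5.85 and a −log10 q of 8.40, and it lay 6212 bp from a replicate 2 peak in a stretch with 50 other replicate 1 and 35 replicate 2 peaks within 100 kb. The next, of 201 bp and a fold of 5.47, lay between FCGR2A, a receptor for IgG, and HSPA6, an inducible heat shock protein, at chr1:161523762-161523962. Those genes have near-identical copies nearby, so the placement of reads there is uncertain. ILF2 had a fold of 5.36 in 889 bp, TRIM7 of 5.14 in 2680 bp and NDUFS7 of 4.86 in 1261 bp. The peaks of ILF2 and NDUFS7 lay over the start, and that of TRIM7 began just upstream of it. RAB11A, with a fold of 4.64 in 1675 bp, lay in the sparsest place of the 10, with 3 other replicate 1 peaks within 100 kb and the nearest replicate 2 peak 76134 bp away. The rest of the 10 were at KNL1, a kinetochore scaffold (4.77), AP3D1, a subunit of the AP-3 adaptor of endosomes (4.75), KIF3A (4.60) and CPN1, the catalytic subunit of carboxypeptidase N (4.52). The both-list peaks of highest fold were of the same size in replicate 1. POLR3E had 5.16 in replicate 1 and 2.49 in replicate 2. AGBL5, a deglutamylase of tubulin, had 4.78 and 2.30, and the shared start of CELF1 and PTPMT1 had 4.59 and 2.00. The median fold of the whole list was 3.14 in replicate 1 and 2.27 in replicate 2, and these peaks were picked by their replicate 1 fold.

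The widest absent peak covered CCND1, which encodes cyclin D1, over 11908 bp at chr11:69640519-69652426. Its fold was 3.29, near the median, and a replicate 2 peak lay 5630 bp away. Next came 10589 bp over the ends of GAS6, a ligand of the TAM receptor kinases, and TMEM255B, then 8485 bp over SURF1, SURF2 and SURF4 of the surfeit cluster. CTSD, which encodes the lysosomal protease cathepsin D, had 8141 bp, and CHCHD6, a protein of the mitochondrial inner membrane, had 7422 bp. All 5 lay within 10073 bp of a replicate 2 peak and had 20 to 47 other replicate 1 peaks within 100 kb, so they were not among the isolated peaks.

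The peaks farthest from replicate 2 were isolated. That at FOLH1, which encodes prostate-specific membrane antigen, was 192 bp wide with a fold of 3.20 and lay 866171 bp from any replicate 2 peak. FOLH1 has a near-identical copy on the same chromosome, so its reads may have been placed in either. CCER1, with a wider peak of 1175 bp, lay 590056 bp away, MTLN, a mitochondrial micropeptide gene, 487000 bp, and NEGR1, a neuronal adhesion molecule, 459314 bp. Within 100 kb, these 4 peaks had 0 to 4 other replicate 1 peaks. That no replicate 2 peak lay within 100 kb follows from their choice by distance.

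Counted by gene, 13652 of the 19122 autosomal protein-coding genes had a replicate 1 gene-end peak. An absent peak was met by 5625 genes, which is 41.2% of those with a peak and 29.4% of all, and a both-list peak by 6375 (46.7% of those with a peak). For 4074 genes all gene-end peaks were absent ones, while 779 had an absent peak beside a both-list one. Most had 1 absent peak (4944 genes), 620 had 2 and 61 had 3 or more. KISS1R, the receptor for kisspeptin, had 4, the highest number, which were 311 to 1234 bp wide with folds of 3.01 to 3.65, and it had no other gene-end peak. Among the 60 genes with 3, the first by name were ACTG1, which encodes gamma-actin, ATP13A1, a transporter of the endoplasmic reticulum, BEND3, a DNA-binding repressor, and C19orf85. An absent peak met 2 or more genes in 762 cases (13.7%) and a both-list peak in 1274 (19.5%).

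Genes with absent peaks alone were long and lay in gene-poor stretches. Their median length was 38.0 kb, against 21.9 kb for genes with both-list peaks alone, 20.6 kb for genes with no replicate 1 gene-end peak and 24.5 kb for all. The median number of other protein-coding genes within 500 kb was 8, 14, 10 and 12 in that order.

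CD274 itself had no replicate 1 gene-end peak of any kind, and neither did its neighbours PDCD1LG2, which encodes the other PD-1 ligand, and JAK2, a kinase of cytokine receptors, nor PDCD1, which encodes PD-1.

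Gene families are described by how many members with a replicate 1 gene-end peak had an absent one, beside the 41.2% of all such genes. Of 38 lists, 19 lay above that share and 6 had a Wilson interval that did not include it. These 6 were the aminoacyl-tRNA synthetases, ZNF zinc fingers, olfactory receptors, keratin-associated proteins and clustered histones, all above it, and the chemokines, below it. The lists were read without a test, so such an interval describes counting error in 1 list and sets no list apart. Over 7 other settings of the distance, the window and the peak threshold, the interval left out the share of all genes in 6 for ZNF zinc fingers and clustered histones, 3 for aminoacyl-tRNA synthetases and olfactory receptors, and 2 for keratin-associated proteins and chemokines.

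**Figure D5:**
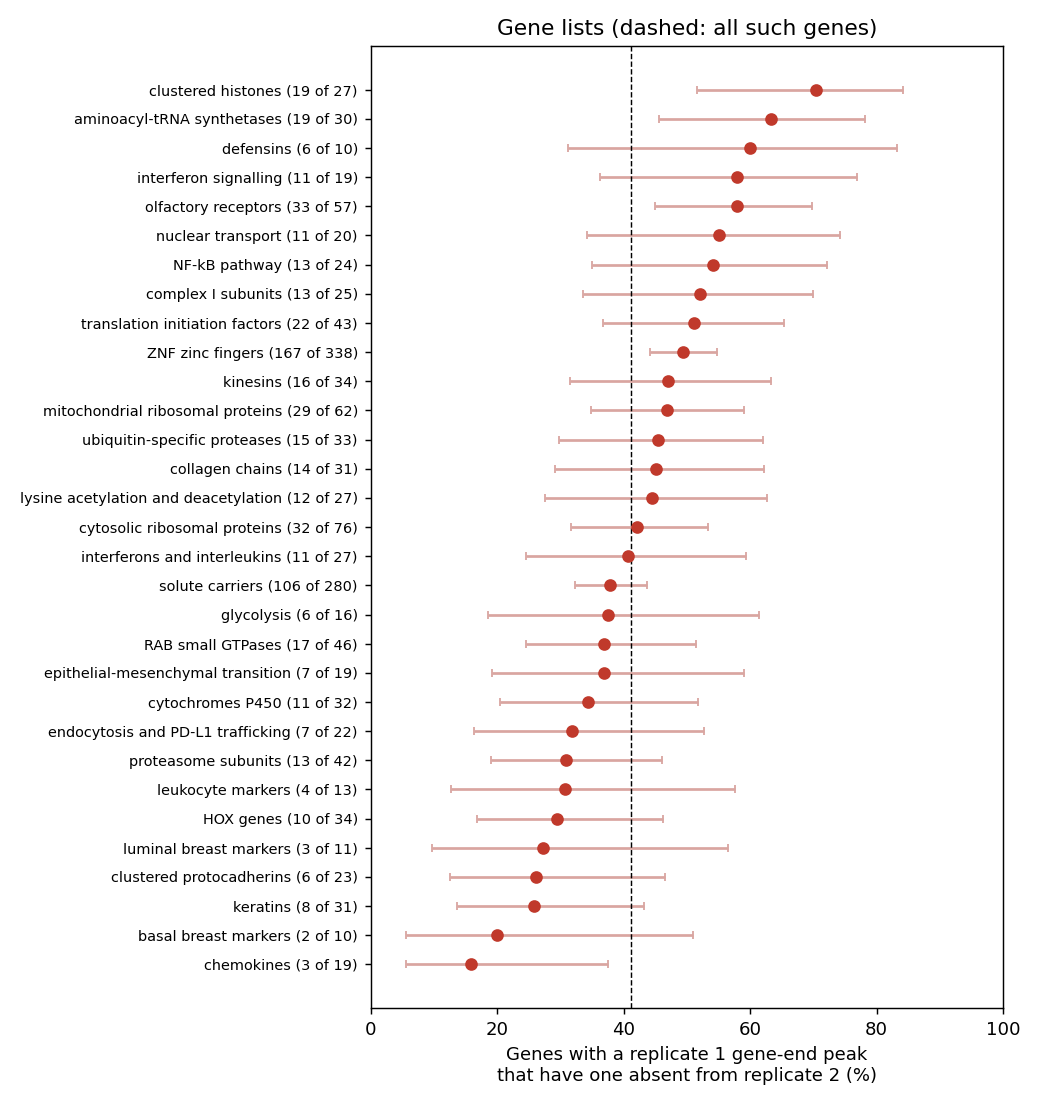
Share of genes with an absent peak among genes with any replicate 1 gene-end peak (x axis, percent, with 95% Wilson intervals) for the lists in which at least 10 genes had a peak, with the counts beside each name and the 41.2% of all such genes as a dashed line. Clustered histones lie highest at 70.4% and chemokines lowest at 15.8%.

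Among the genes of protein synthesis, the aminoacyl-tRNA synthetases, which charge tRNAs with amino acids, had an absent peak in 19 of 30 genes (63.3%, 45.5 to 78.1%). LARS2 and RARS2, the mitochondrial leucine and arginine enzymes, had folds of 3.81 and 3.75 at their starts, and AARS1, the cytosolic alanine enzyme, had 3.37 at its other end. Around the gene-end peaks of that list lay a median of 21 other replicate 1 peaks within 100 kb, below the 29 of all gene-end peaks. Cytosolic ribosomal proteins were at the background, with 32 of 76 (42.1%, 31.6 to 53.3%), led by RPL5 (3.89), RPS15 (3.79) and RPL37 (3.73). Mitochondrial ribosomal proteins had 29 of 62 (46.8%), led by MRPS17 (4.24), MRPL12 (3.94) and MRPL37 (3.81). Genes named as translation initiation factors, a name that also takes in kinases of EIF2, had 22 of 43 (51.2%, 36.8 to 65.4%), led by EIF3J (4.39), EIF3D (3.57) and EIF3H (3.56). Complex I subunits had 13 of 25 (52.0%), with NDUFS7 (4.86) followed by NDUFC2 (3.52) and NDUFB6 (3.47). Proteasome subunits, which degrade ubiquitinated proteins, had 13 of 42 (31.0%, 19.1 to 46.0%), led by PSMA6 (4.21), PSMD11 (3.58) and PSMA4 (3.56).

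Of the genes that act on chromatin and DNA, ZNF zinc fingers, many of which are repressors of transposable elements, had an absent peak in 167 of 338 (49.4%, 44.1 to 54.7%). ZNF84 (4.30), ZNF501 (4.28) and ZNF337 (4.16) led them, each in a start window. Around the gene-end peaks of the ZNF list lay a median of 21 neighbours, against 29 for all gene-end peaks. Clustered histone genes, which supply histones in S phase, had one in 19 of 27 (70.4%, 51.5 to 84.1%), with H3C6 (3.65), H2BC26 (3.61) and H1-4 (3.53) first. Only 27 of their 74 genes had a replicate 1 gene-end peak, they stand close together, and copies of a histone gene are near-identical, so single genes are uncertain. Gene-end peaks of the clustered histones had a median of 14 neighbours. Enzymes of lysine acetylation and deacetylation were near the background with 12 of 27 (44.4%). SIRT2, a deacetylase of tubulin, had a fold of 3.74 in a peak it shares with NFKBIB, HAT1, which acetylates new histones, had 3.66, and SIRT6, a nuclear deacetylase, had 3.64. The PRC2 subunits, which methylate histone H3 at lysine 27, had 4 of 6, among them the catalytic EZH2 (3.56) and EZH1 (3.06) and the reader EED (2.92), all in start windows. HOX genes, the clustered patterning genes, had 10 of 34 (29.4%), led by HOXC9 (3.96) and HOXB7 (3.74).

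In the lists of transport, motors and trafficking, shares lay on both sides of the background. RAB small GTPases had 17 of 46 (37.0%), where RAB30 (3.83) and RAB10 (3.79) followed RAB11A. Kinesins had 16 of 34 (47.1%), where KIF2C, a depolymerase of microtubules (3.70), and KIF6 (3.59) followed KIF3A. Genes of endocytosis and PD-L1 trafficking had 7 of 22 (31.8%), where HIP1, a clathrin adaptor (3.62), and CMTM4, a stabiliser of PD-L1 (3.43), followed RAB11A. Nuclear transport receptors and their partners had 11 of 20 (55.0%, 34.2 to 74.2%), with the importins IPO7 (4.23), KPNA6 (3.48) and IPO8 (3.36) first, all at starts. Solute carriers had 106 of 280 (37.9%, 32.4 to 43.7%), led by the riboflavin transporter SLC52A1 (4.05), the glucose transporter SLC2A1 (3.96) and the phosphate transporter SLC34A3 (3.93). Ubiquitin-specific proteases had 15 of 33 (45.5%), led by USP48 (4.10), USP6 (3.61) and USP42 (3.54).

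The immune lists were small. Chemokines, the secreted attractants of leukocytes, had an absent peak in 3 of 19 genes (15.8%, 5.52 to 37.6%), which were CXCL2 (3.83), CXCL1 (3.18) and CCL8 (3.15), all at starts, while 10 of the 19 had a both-list peak. Their gene-end peaks had a median of 34 neighbours. Interferon signalling genes had 11 of 19 (57.9%, 36.3 to 76.9%), with the receptor IFNAR1 (3.47), the ubiquitin-like ISG15 and the transcription factor IRF3 (3.38 each). Genes of the NF-kB pathway had 13 of 24 (54.2%, 35.1 to 72.1%), with the inhibitor NFKBIB (3.74, the peak shared with SIRT2), the subunit RELA (3.72) and the kinase RIPK1 (3.37). Interferons and interleukins had 11 of 27 (40.7%), led by IFNL2 (3.60), IL12B (3.41) and IL6 (3.24). Immune checkpoints had 4 of 9, with CD47 (3.19), CD276 (3.15) and CD86 (3.02) first. MHC class I antigen presentation had 2 of 5, the chaperone CANX (3.51) and the peptide trimmer ERAP1 (3.17). Defensins had 6 of 10, led by DEFB116 (3.27), DEFB119 (3.24) and DEFB115 (3.24).

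Gene families of the nose and hair had few gene-end peaks, and most of the genes with one had an absent one. Olfactory receptors, which act in the nose, had a replicate 1 gene-end peak at 57 of 391 genes, and 33 of the 57 had an absent one (57.9%, 45.0 to 69.8%), led by OR10H1 (3.97), OR2AT4 (3.94) and OR3A3 (3.79). Keratin-associated proteins of hair had a peak at 6 of 94 genes, absent in 5, led by KRTAP10-9 (3.58), KRTAP23-1 (3.15) and KRTAP11-1 (3.02). The medians of neighbours were 8 and 3 for these lists, far under 29, and both hold near-identical copies, so single genes are uncertain. Bitter taste receptors had a peak at 3 of 25, none of them absent. Keratins had 8 of 31 (25.8%), led by KRT85 (3.43), KRT9 (3.37) and KRT81 (3.34), and clustered protocadherins 6 of 23 (26.1%), led by PCDHB1 (3.51), PCDHGA12 (3.38) and PCDHGB1 (3.23). Those 23 protocadherin genes shared 12 gene-end peaks, and 2 of the genes had a both-list peak. Counted by peak, 6 of the 12 were absent (50%), against 30.6% of all gene-end peaks. Collagen chains had 14 of 31 (45.2%), led by COL15A1 (3.59), COL14A1 (3.51) and COL6A3 (3.50), and cytochromes P450 11 of 32 (34.4%), led by CYP20A1 (3.59), CYP2W1 and CYP4X1 (3.44 each).

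Lists tied to this cancer and to other cell types had shares at or below 41.2%, with intervals that all held it. Epithelial-mesenchymal transition genes had 7 of 19 (36.8%), with the repressors ZEB1 (4.02), TWIST2 (3.59) and SNAI2 (3.17) first. Glycolysis genes had 6 of 16 (37.5%), with ALDOA (3.86), ENO1 (3.63) and PFKL (3.12) first. Basal breast markers had 2 of 10, KRT6B (3.23) and CAV1 (2.80), and luminal markers had 3 of 11, ERBB3 (3.44), FOXA1 (3.01) and XBP1 (3.01). Markers of other cell types had shares of the same order: leukocyte markers 4 of 13, led by CD3D (3.70) and CD14 (3.44), hepatocyte markers 3 of 8, which were AHSG (3.15), APOB (3.03) and TF (2.95), and neuron markers 2 of 5, which were RBFOX3 (3.49) and GRIN1 (3.17).

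A wider view takes every family of at least 20 genes that share the letters before the first digit of their symbol. There were 102 such families, 101 had a replicate 1 gene-end peak, and their median share with an absent peak was 40%, with 46 above the 41.2% of all genes. The highest were GOLGA, of which many are near-identical copies, with 6 of 7 and GOLGA2 (4.05) first, and KRTAP with 5 of 6. Next came GTF, the general transcription factors, with 14 of 20 (70.0%, 48.1 to 85.5%), led by GTF3C1 (4.09), GTF2A1L (3.91) and GTF3C2 (3.83), and RBM, the RNA-binding motif proteins, with 22 of 32 (68.8%, 51.4 to 82.0%), led by RBM28 (4.07), RBM33 (3.76) and RBM5 (3.69). ADAM, the membrane metalloproteases, had 8 of 12, led by ADAM22 (3.55), ADAM8 (3.49) and ADAM15 (3.38), and UGT, which reached the same share, had 2 of 3. The lowest were the symbols with the stem S, mostly the calcium-binding S100 proteins, with 1 of 22 (4.55%, 0.807 to 21.8%), which was S100B (3.88), and CCL with 1 of 12, which was CCL8. TSPAN, the tetraspanins, had 2 of 16, TSPAN19 (3.91) and TSPAN2 (3.09), CDH, the cadherins, had 2 of 15, CDH17 (3.38) and CDH2 (3.07), and KCTD had 3 of 17, KCTD8 (3.94), KCTD12 (3.08) and KCTD16 (2.78). Among the high families, median neighbours were 36 for GOLGA, 3 for KRTAP, 13 for GTF, 27 for RBM and ADAM and 6 for UGT. Among the low ones they were 29.5 for S, 25 for CCL, 45 for TSPAN and CDH and 31.5 for KCTD. Over all gene-end peaks the median was 29.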

How the data were processed

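The submitters' processing notes name Bowtie2 2.2.9, MACS2 2.1.1 and hg38 without saying what each did; thresholds and caller settings were not given in the sources used here. Deposited lists give 4 values for each peak: a score, equal in 99.99% of lines to 10 times the −log10 q without its decimals, the fold enrichment (a ratio), the −log10 p-value and the −log10 q-value. All 4 are the authors' values, and they served only to describe peaks, rank them or filter them inside 1 list, except that 3 both-list peaks are given with the fold of each list. The names of replicate 2 peaks contain "Merge", with no meaning given in the sources used. Both inputs entered only through the caller.

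Distances are the bases between a replicate 1 peak and the nearest replicate 2 peak, on chromosomes 1 to 22. Neighbours are other replicate 1 peaks with their centre within 100 kb. Gene ends came from the RefSeq gene table of GRCh38.p14, the assembly of hg38, and strands and promoter sequences from the RefSeq promoter table, which matched 15100 of 19122 genes. Exons and introns were not analysed here. Python 3.11.15, pandas 2.3.3, numpy 2.4.6 and SciPy 1.17.1 were used. Intervals of shares are 95% Wilson intervals and those of medians are order-statistic intervals. The functions for distance, overlap, gene ends and local density were tested on simulated peaks, and the Wilson and order-statistic intervals were not. The members, gene lists and rules were chosen with earlier results of these data known. Peaks were named by rank: the 10 of highest fold, the 5 widest, the 5 farthest from replicate 2, the 3 on each side of the 5 kb limit, the 5 genes with the most absent peaks, up to 3 leading genes per list, the 3 both-list peaks of highest fold, and the 5 highest and lowest symbol families. Some of the genes so named are not reported here. The alternatives were other distances, windows, peak thresholds and density ranges.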

Additional observations from a re-analysis of the deposited data

How the results depend on the processing

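With 1 list per replicate and members that need both lists, leaving out a replicate gives no value. No paired analysis was possible because each replicate gave 1 list and no test was made. The shares below are absent gene-end peaks, then absent peaks elsewhere, at gene starts and at other gene ends, then genes with an absent peak among all genes. They were 30.6%, 33.1%, 39.3%, 19.96% and 29.4% as reported. With a distance of 1 kb they were 54.3%, 62.1%, 59.3%, 50.1% and 47.8%, and with 10 kb 19.97%, 19.5%, 28.3%, 9.24% and 19.7%. With windows of 500 bp they were 31.6%, 32.9%, 40.3%, 18.4% and 26.0%, and with 5 kb 27.3%, 34.5%, 34.7%, 24.3% and 42.7%. With a −log10 q of at least 2 they were 27.5%, 29.6%, 36.5%, 16.2% and 14.9%. The 50% of peaks with the higher fold gave 28.4%, 31.0%, 36.8%, 18.0% and 17.3%, and equal numbers of peaks in both lists gave 28.2%, 29.97%, 37.2%, 16.4% and 19.5%. Gene ends were below elsewhere in 6 of the 7 alternatives, all but 10 kb, and starts were above other ends in 7 of 7. The values at starts and other ends, and the CG medians, were added after seeing the data, and the CG medians were 25 or 26 for absent and 24 or 25 for both-list promoters.

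Median width of absent peaks was 790 bp with a distance of 1 kb and 731 bp with 10 kb. For absent and both-list peaks it was 811 and 1660.5 bp with windows of 500 bp, 622 and 1206 bp with 5 kb, 886 and 1907 bp with a −log10 q of at least 2, 854 and 1789 bp for the 50% of higher fold, and 874 and 1820 bp with equal numbers. Median neighbours of absent peaks were 25 with 1 kb, 10 with 10 kb and 19 with windows of 5 kb. For absent and both-list peaks they were 7 and 18 with a −log10 q of at least 2, 9 and 20 for the 50% of higher fold, 9 and 23 with equal numbers, and 173 and 280 within 1 Mb. Stricter thresholds and narrower ranges count fewer peaks by construction. Both-list peaks were the wider in 7 of 7 alternatives and had more neighbours in 8 of 8. Of the 42 values of the 6 gene lists whose interval did not include the background, 41 stayed on the same side of it, and the exception was ZNF zinc fingers at 1 kb, with 65.7% against 66.9%. The interval still left out the background in 22 of the 42, and the keratin-associated proteins came down to 1 gene with a −log10 q of at least 2 and with equal numbers.

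Depth limits every share: reads and library sizes were not used here, so absence from the list of replicate 2 says only that no peak passed its threshold within 5 kb.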
